A study of Homo sapiens with 18 samples.

Results

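The genes of the collagen, laminin and integrin families were followed in OVCAR-3 cells during inhibition of the BET proteins, which read acetylated histones. OVCAR-3 is an established line from a high-grade serous cancer of the ovary. The members were all protein-coding genes whose symbol follows the pattern of a collagen chain (COL, a type number, A and a chain number), a laminin chain (LAMA, LAMB or LAMC) or an integrin subunit (ITGA or ITGB), and this rule uses no measured value. There were 82 members of the 58825 genes counted, with 44 collagen, 12 laminin and 26 integrin genes. All samples were OVCAR-3 cells grown in RPMI and treated in stripped medium with DMSO, 1 µM i-BET858 or 1 µM i-BET151 for 4 or 24 h. Each of the 6 conditions had 3 replicates, which gave 18 libraries of poly-A RNA. Both drugs are BET inhibitors (BETi). As cultures of a single line without stroma, the samples bear only on the transcripts of the cancer cells themselves.

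Collagens are triple helices of α chains. Fibrillar collagens form the fibres of connective tissue, collagen IV forms the sheet-like network of the basement membrane, and fibril-associated collagens sit on the surface of fibres. Laminins are cross-shaped heterotrimers of an α, a β and a γ chain that lie on the epithelial side of the basement membrane. Integrins are heterodimers of an α and a β subunit that bind these proteins from the cell surface and connect them to the cytoskeleton. In ovarian cancer these molecules carry the adhesion of tumour cells to the mesothelium and the peritoneal matrix. The integrins αvβ6 and αvβ8 are known for the release of active TGFβ from its latent complex.

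Library totals lay between 27323969 and 46299994 counts (median 32267434), and the members took 0.43 to 0.63% of them. Each member had a count in at least 1 library, and 48 had one in all libraries. Levels are given as CPM, counts relative to the library total after TMM scaling. A count of 0 allows up to 3 counts, which is 0.0648 to 0.110 CPM (counting error only). HEXIM1, a transcript that is commonly raised by BETi, rose in all 4 comparisons with DMSO (log2 fold change 1.87 and 1.76 with i-BET858 at 4 and 24 h, 1.25 and 1.12 with i-BET151). Libraries of replicate 3 had counts for 17817 to 20642 genes against 23674 to 24947 in the others. All 12 markers of serous ovarian epithelium were counted in every library. None of 6 fibroblast markers was, and their summed level at 4 h was 0 to 0.614 CPM with DMSO, 0.821 to 1.59 CPM with i-BET858 and 0.618 to 0.982 CPM with i-BET151, and at or under 1.18 CPM at 24 h. Of the other cell types, 2 of 5 endothelial and 1 of 6 leukocyte markers were counted in every library, with sums at or under 15.9 and 3.42 CPM. The endothelial sum was 9.27 to 15.9 CPM with i-BET858 at 4 h and 4.69 to 12.4 CPM with i-BET151 against 3.56 to 6.82 CPM with DMSO. The leukocyte sum at 24 h was 1.14 to 1.87 CPM with i-BET858 and 0.437 to 0.976 CPM with i-BET151, the latter below the 1.55 to 3.09 CPM of DMSO, and 1 of the 2 leukocyte markers tested fell with each drug. The part of these sums in the results was not tested. At 4 h the summed epithelial markers reached 9319 to 10640 CPM with DMSO, 12360 to 12790 CPM with i-BET858 and 10320 to 10840 CPM with i-BET151. At 24 h they reached 9504 to 10740 CPM with DMSO, 7667 to 7855 CPM with i-BET858 and 7557 to 7901 CPM with i-BET151. With i-BET858 the sum thus stood above DMSO when the median of the members did and below it when that median did. Of the 12 markers, 2 rose and 4 fell with each drug at 24 h, and their part in the results was not tested.

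Of the promoters, 3 are shown, those of ITGB8, which was called in opposite directions at the 2 times, of ITGB6, which fell with both drugs at 24 h, and of the pair of collagen IV genes that share a start region (COL4A1 and COL4A2). The stretches come from RefSeq on GRCh38.p14, and those of ITGB8 and ITGB6 end where the first annotated exon begins. Capitals mark the GC box, which reads GGGCGG, and the CAAT box, which reads CCAAT. The TATA box as TATAAA and the AP-1 site as TGANTCA were also searched, on both strands and without overlap between the motifs. ITGB8 lies at chr7:20330702-20415754 on the + strand, and its stretch at chr7:20330650-20330701 holds a CCAAT and a GC box that reads CCGCCC on this strand. ITGB6 lies at chr2:160099667-160200313 on the − strand, and its stretch at chr2:160200314-160200522 holds none of these letters. In RefSeq the starts of COL4A1 (− strand) and COL4A2 (+ strand) on chromosome 13 have 126 bases between them and the genes are read away from each other, while in GENCODE 44 COL4A2 begins at 110305812, within COL4A1, which ends at 110307157. The stretch at chr13:110307158-110307257, written on the + strand, begins next to the start of COL4A1, stops short of the RefSeq start of COL4A2 and holds a CCAAT and a GC box.
ITGB8: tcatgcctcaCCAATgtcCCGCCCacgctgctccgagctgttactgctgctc
ITGB6: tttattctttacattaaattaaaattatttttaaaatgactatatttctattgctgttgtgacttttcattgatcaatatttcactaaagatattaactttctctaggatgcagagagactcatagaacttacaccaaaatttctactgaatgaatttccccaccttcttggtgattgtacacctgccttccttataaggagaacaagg
COL4A1-COL4A2: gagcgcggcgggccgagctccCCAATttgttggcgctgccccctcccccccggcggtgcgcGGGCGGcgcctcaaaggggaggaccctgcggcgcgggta

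Over the 250 bases before the start site, RefSeq sequences were found for 58 of the 82 members. A GC box was present in 35 of the 58 (60.3%), against 46.2% of the 27305 genes in the table, and a CCAAT in 16 (27.6%), against 37.0%. Among the members called with i-BET858 at 24 h, 8 of the 8 that rose and had a sequence held a GC box, as did 9 of the 16 that fell. A CCAAT was present in 3 of these 8 and 5 of these 16. The TATA box was present in 3 and 0 (13.05% of all genes) and the AP-1 site in 1 and 1 (8.06% of all genes). These shares were not tested. These are descriptions of letters in a window and not of binding.

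Per length of their exons (RPKM, CPM per kilobase), ITGB5, a β subunit that pairs with αv, was the most abundant member in DMSO at 4 h, at 106 ± 27.5 RPKM (SD, n = 3). COL18A1, the basement membrane collagen from which endostatin is cleaved, followed at 65.3 ± 10.3, LAMC1 at 47.4 ± 10.4, ITGB1 at 37.3 ± 3.26 and LAMA5 at 37.2 ± 10.2. LAMB2 (34.9 ± 5.13), COL26A1 (34.8 ± 5.15) and ITGB8 (31.6 ± 1.48) came next, and from LAMC1 to ITGB8 the ranges of neighbours in this order overlapped. The 3 chains of laminin-521 (α5β2γ1) were thus among the 6 most abundant members, whereas COL1A1, a chain of the collagen I that fibroblasts make, stood at rank 25 (3.21 ± 1.15 RPKM). After 24 h COL26A1, a little studied secreted collagen, went from rank 3 with DMSO (39.8 ± 8.72 RPKM) to rank 11 with i-BET858 (14.1 ± 4.44) and rank 10 with i-BET151 (16.4 ± 8.59), and ITGA6 stood at rank 9 with both drugs (20.3 ± 1.91 and 17.1 ± 1.39).

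The first question was how many members responded, and when. "Rose" and "fell" stand for a Benjamini-Hochberg adjusted p under 0.05 over all genes in edgeR's quasi-likelihood test. Log2 fold changes carry their SE, and p-values measure the spread between replicates within groups, pooled over the groups of a fit. The main fits have no block for the replicate number, so differences shared by libraries of 1 number count as spread. Counts with such a block are given below and assume that libraries of 1 number are matched. With 4 h of i-BET858, 6 of the 62 tested members rose and 1 fell, or 11.3%. Of all genes 30.8% were called, 14.5% higher and 16.3% lower. With i-BET151, 3 rose and 2 fell (8.06%), while 16.2% of all genes were called, 7.81% higher and 8.43% lower. Without DMSO replicate 2 none of these 3 rises was called. At 24 h i-BET858 raised 10 and lowered 21 of 61 tested members (50.8%). Of all genes 41.7% were called, 20.5% higher and 21.3% lower. After 24 h of i-BET151, 11 rose and 13 fell (39.3%), while 33.8% of all genes were called, 17.2% higher and 16.6% lower. At 4 h the shares of members called lay below those of all genes. At 24 h the share that fell was 34.4% of members beside 21.3% of all genes with i-BET858, and 21.3% beside 16.6% with i-BET151. These shares are descriptions and were not tested against each other. With replicates 1 and 2 only, 16 and 9 members were called at 4 h and 44 with each drug at 24 h, and no call was lost. Of all genes 41.9 and 25.9% were then called at 4 h and 60.7 and 54.2% at 24 h.

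With a fold change of at least 2 asked for as well, 2 members rose and 1 fell with i-BET858 at 4 h, when 14.1% of all genes were called, 7.08% higher and 7% lower. At 24 h 3 rose and 16 fell (all genes 18.8%, of which 7.65% higher and 11.2% lower). With i-BET151 1 rose and 1 fell at 4 h (all genes 7.1%, with 4.12% higher and 2.97% lower), and 3 rose and 13 fell at 24 h (all genes 13.7%, with 5.59% higher and 8.09% lower). Most falls at 24 h were thus 2-fold or more, and most rises were smaller. Over all genes, 1922 of 3648 falls and 1312 of 3510 rises with i-BET858 at 24 h were 2-fold or more. With i-BET151 these were 1388 of 2841 and 959 of 2956. The 3 members that rose at least 2-fold at 24 h were COL5A3, COL15A1 and ITGA6 with each drug. The first 2 of these passed the filter on low counts only through the treated libraries in which they were high, so that they had to differ.

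The median log2 fold change of the tested members was 0.33 at 4 h and −0.42 at 24 h with i-BET858, beside 0.02 and −0.01 over all genes, and 0.16 and −0.30 with i-BET151, beside 0.01 and 0.00. In bulk RNA, fewer cells of a kind and less RNA per cell cannot be told apart. Both drugs were compared with the same DMSO libraries, so that their values are set side by side here. With the replicate number as a block in the fit, the called members went from 7 to 24 with i-BET858 at 4 h and from 5 to 13 with i-BET151. Of all genes 45.4 and 32.7% were then called. At 24 h the called members went from 31 to 36 and from 24 to 34 (all genes 52 and 45.9%), and no call was lost.

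**Figure D1:**
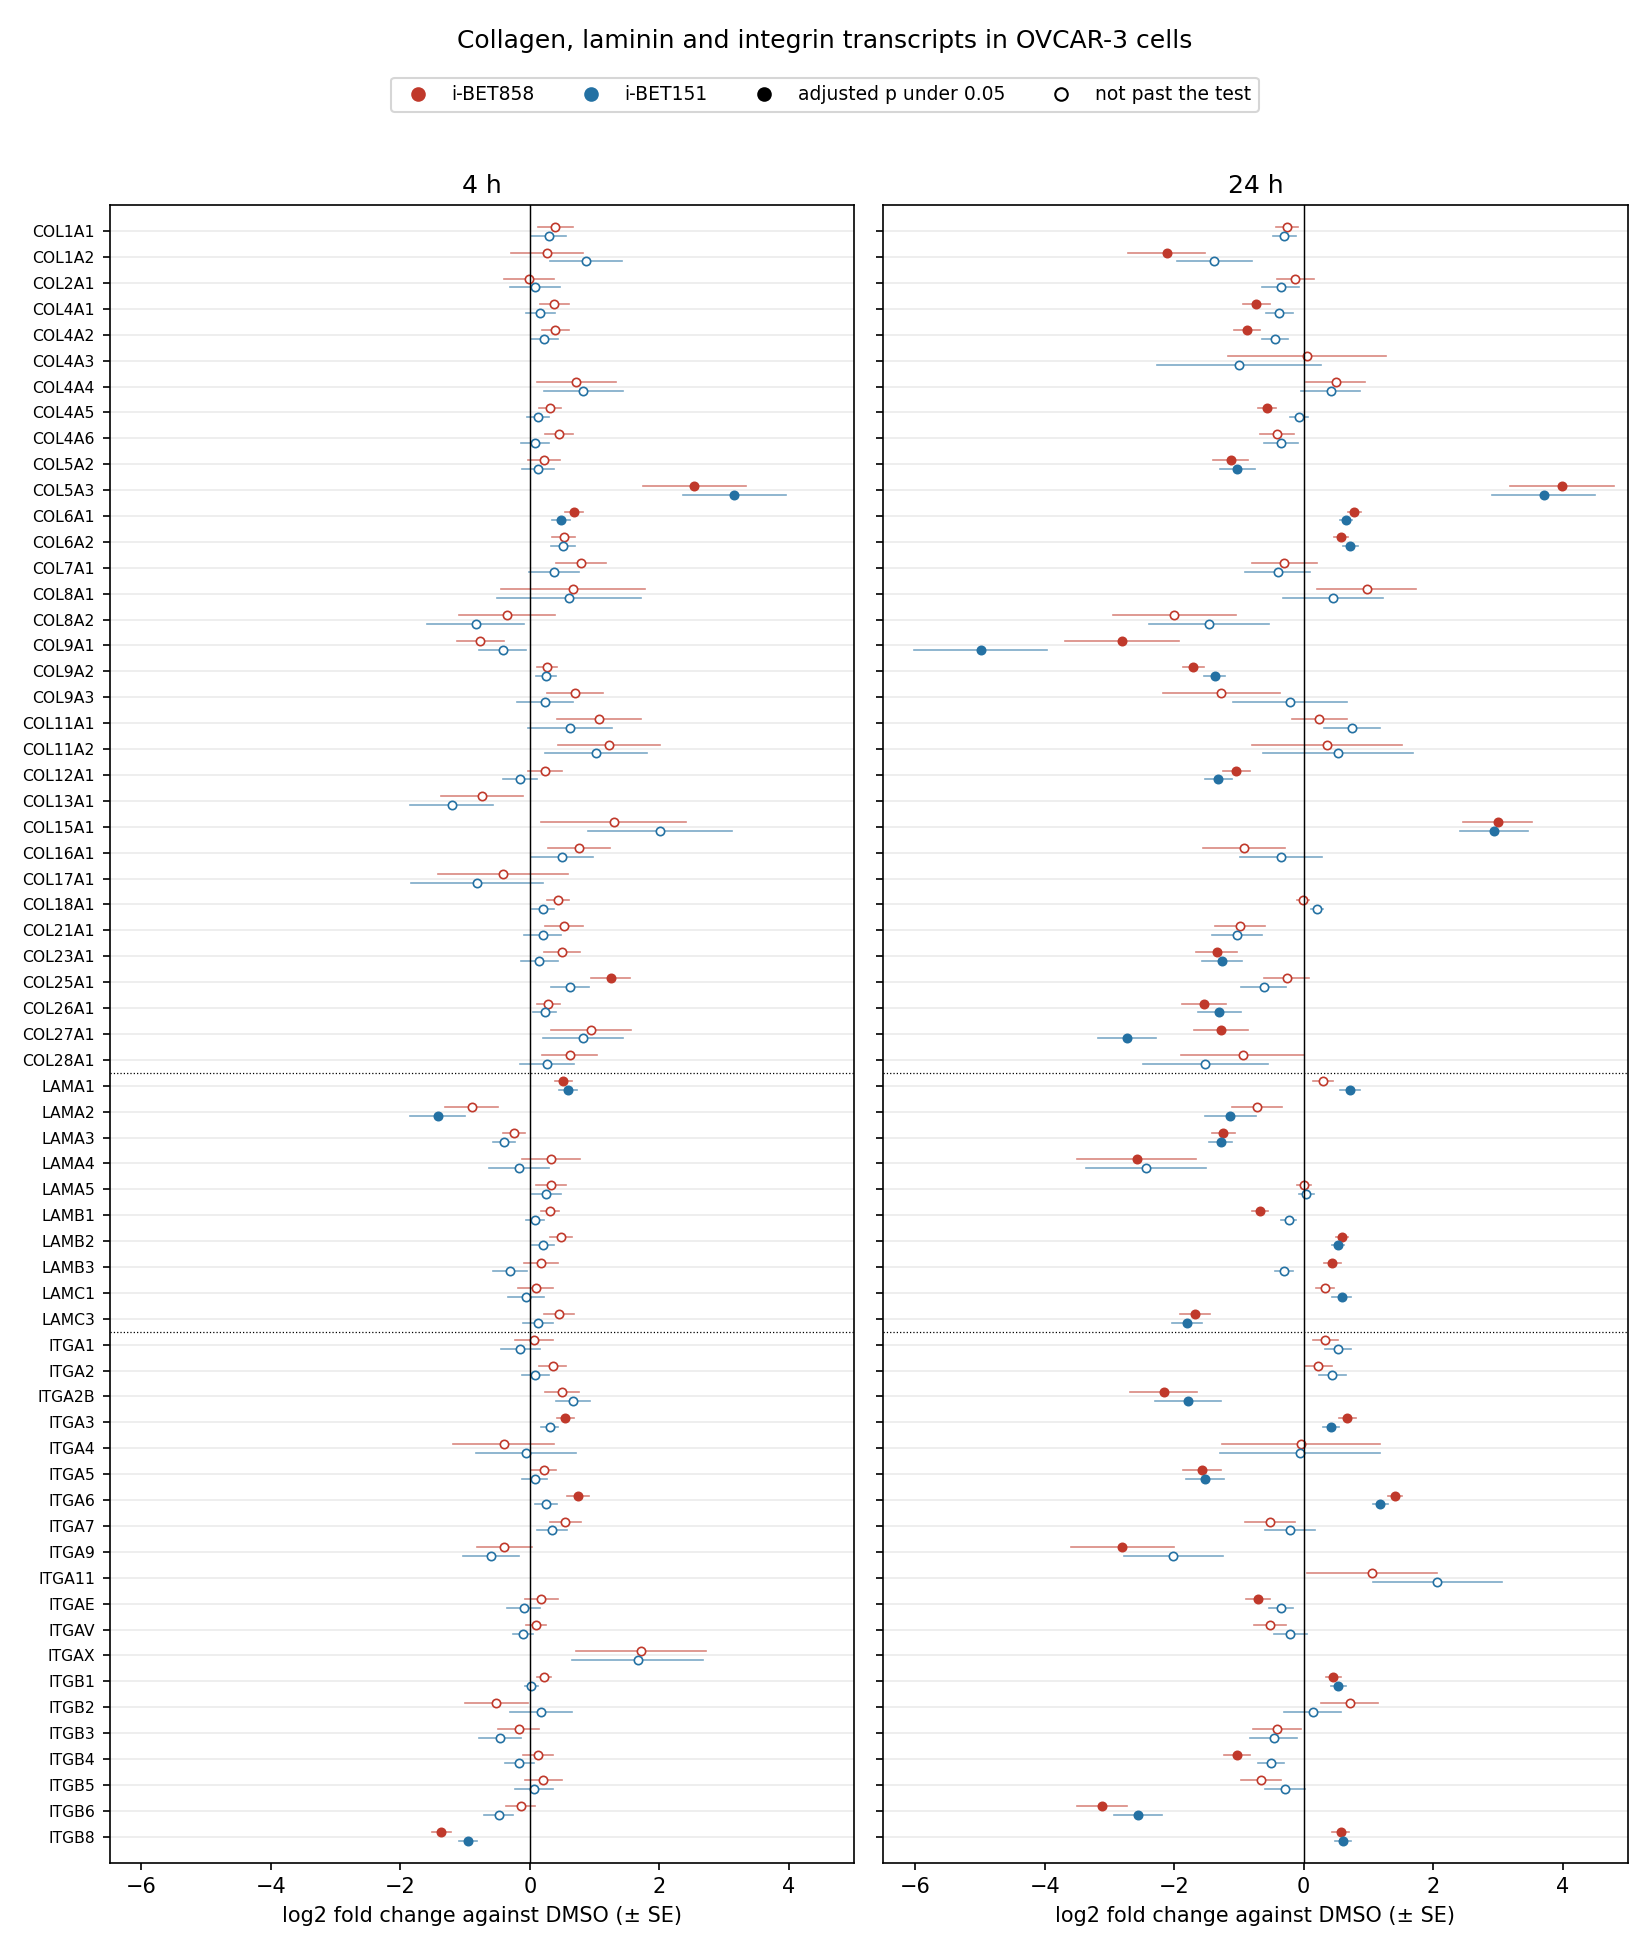
Log2 fold change against DMSO of the tested members reported here, by drug and time point, with filled points for members past the test in edgeR. At 4 h most members lie above 0 with few calls, and at 24 h 21 members fell with i-BET858 and 13 with i-BET151.

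All members called in a comparison had the same direction within each replicate number (7 of 7 and 31 of 31 with i-BET858 at 4 and 24 h, 5 of 5 and 24 of 24 with i-BET151). The calls came from these same libraries, so this agreement was largely fixed by the selection and is no independent support. By family, i-BET858 raised 4 and lowered 11 of 31 collagens (median log2 fold change −0.57), raised 2 and lowered 4 of 11 laminins (median 0.00) and raised 4 and lowered 6 of 19 integrins (median −0.41) at 24 h, beside 20.5% of all genes that rose and 21.3% that fell. The corresponding numbers for i-BET151 were 4 and 7 (−0.38), 3 and 3 (−0.27), and 4 and 3 (−0.20), beside 17.2 and 16.6% of all genes. Summed over the family, collagen transcripts took 1157 to 1241 CPM with DMSO at 24 h, 882 to 1011 CPM with i-BET858 and 981 to 1242 CPM with i-BET151, so that the i-BET858 libraries lay below those of DMSO and the i-BET151 libraries overlapped with them. Laminin transcripts took 1316 to 1364 CPM with DMSO, 1359 to 1594 CPM with i-BET858 and 1401 to 1738 CPM with i-BET151. Those of integrins took 1985 to 2601, 2130 to 2672 and 2258 to 2899 CPM. The sums of these 2 families overlapped with DMSO, apart from the laminins with i-BET151, which lay above it. Within each replicate number both sums were higher with either drug than with DMSO, which was not tested.

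Among the integrin β subunits, ITGB8 changed direction with time. ITGB8 pairs with αv and binds latent TGFβ. At 4 h its transcripts stood at 454, 483 and 498 CPM with DMSO. They stood at 175, 177 and 203 CPM with i-BET858 and at 249, 198 and 295 CPM with i-BET151. All treated libraries were below all DMSO libraries. This was a 2.58-fold drop with i-BET858 (log2 fold change −1.37 ± 0.14, adjusted p = 3.68e-05) and a 1.94-fold drop with i-BET151 (−0.95 ± 0.14, adjusted p = 0.000975). At 24 h the order was the opposite. DMSO libraries had 336, 361 and 343 CPM, those of i-BET858 528, 454 and 608 CPM and those of i-BET151 454, 556 and 598 CPM, again without overlap. ITGB8 was then 1.49-fold higher with i-BET858 (0.57 ± 0.13, adjusted p = 0.0047) and 1.52-fold higher with i-BET151 (0.61 ± 0.13, adjusted p = 0.00447). The change of the effect between the time points was 1.98 ± 0.20 for i-BET858 (adjusted p = 2.14e-06). For i-BET151 it was 1.58 ± 0.20 (adjusted p = 7.18e-05). Its log2 fold change in DMSO at 24 h against 4 h was −0.46, which did not pass the test (adjusted p = 0.228) but did so with the replicate block (adjusted p = 0.0257). The lowest i-BET858 library of 24 h equalled the lowest DMSO library of 4 h. ITGB8 was the only member that fell at 4 h and rose at 24 h with both drugs, a pattern singled out after its values were seen.

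ITGB6, the β subunit of the epithelial integrin αvβ6, went the other way. With DMSO at 24 h it had 4.79, 4.61 and 8.31 CPM (137 to 261 counts). It had 0.762, 0.695 and 0.643 CPM with i-BET858 (22 to 35 counts) and 0.83, 0.73 and 1.49 CPM with i-BET151. The groups did not overlap. The fall was 8.64-fold with i-BET858 (−3.11 ± 0.38, adjusted p = 9.85e-05) and 5.91-fold with i-BET151 (−2.56 ± 0.37, adjusted p = 0.000447). At 4 h its log2 fold changes were −0.14 and −0.48 and did not pass (adjusted p = 0.672 and 0.176). A same-strand long non-coding RNA shares 16.7% of the exon bases of ITGB6, so that part of its counts could belong to that gene.

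The β4 subunit, which pairs only with α6 and anchors hemidesmosomes, fell as well with i-BET858. ITGB4 had 53.1, 50.1 and 62.6 CPM with DMSO at 24 h and 26.7, 24.9 and 32.3 CPM with i-BET858 (−1.02 ± 0.20, adjusted p = 0.002). With i-BET151 it had 30.9, 34.5 and 53.1 CPM, so that replicate 3 reached into the DMSO range and the test was not passed (−0.51 ± 0.20, adjusted p = 0.0734, 0.00158 with the replicate block). ITGB1, the common partner of most α subunits, rose moderately. Its level at 24 h went from 487, 465 and 466 CPM with DMSO to 749, 624 and 626 CPM with i-BET858 (0.46 ± 0.11, adjusted p = 0.00816). It went to 702, 790 and 594 CPM with i-BET151 (0.53 ± 0.11, adjusted p = 0.00448), and both groups lay above all DMSO libraries. ITGB5, the most abundant member, had 622, 720 and 1190 CPM with DMSO and 422, 490 and 733 CPM with i-BET858, which overlapped. Its log2 fold change of −0.67 ± 0.31 did not pass (adjusted p = 0.112) but did so with the replicate block (−0.64, adjusted p = 1.36e-05). With i-BET151 the values were −0.29 (adjusted p = 0.513) and, blocked, −0.29 (adjusted p = 0.00649). ITGB3, the partner of αIIb in platelets, stood at 1.94 to 2.96 CPM in DMSO and did not pass with either drug (−0.41 and −0.47). Of its exon bases, 33.2% are shared with a same-strand gene.

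**Figure D2:**
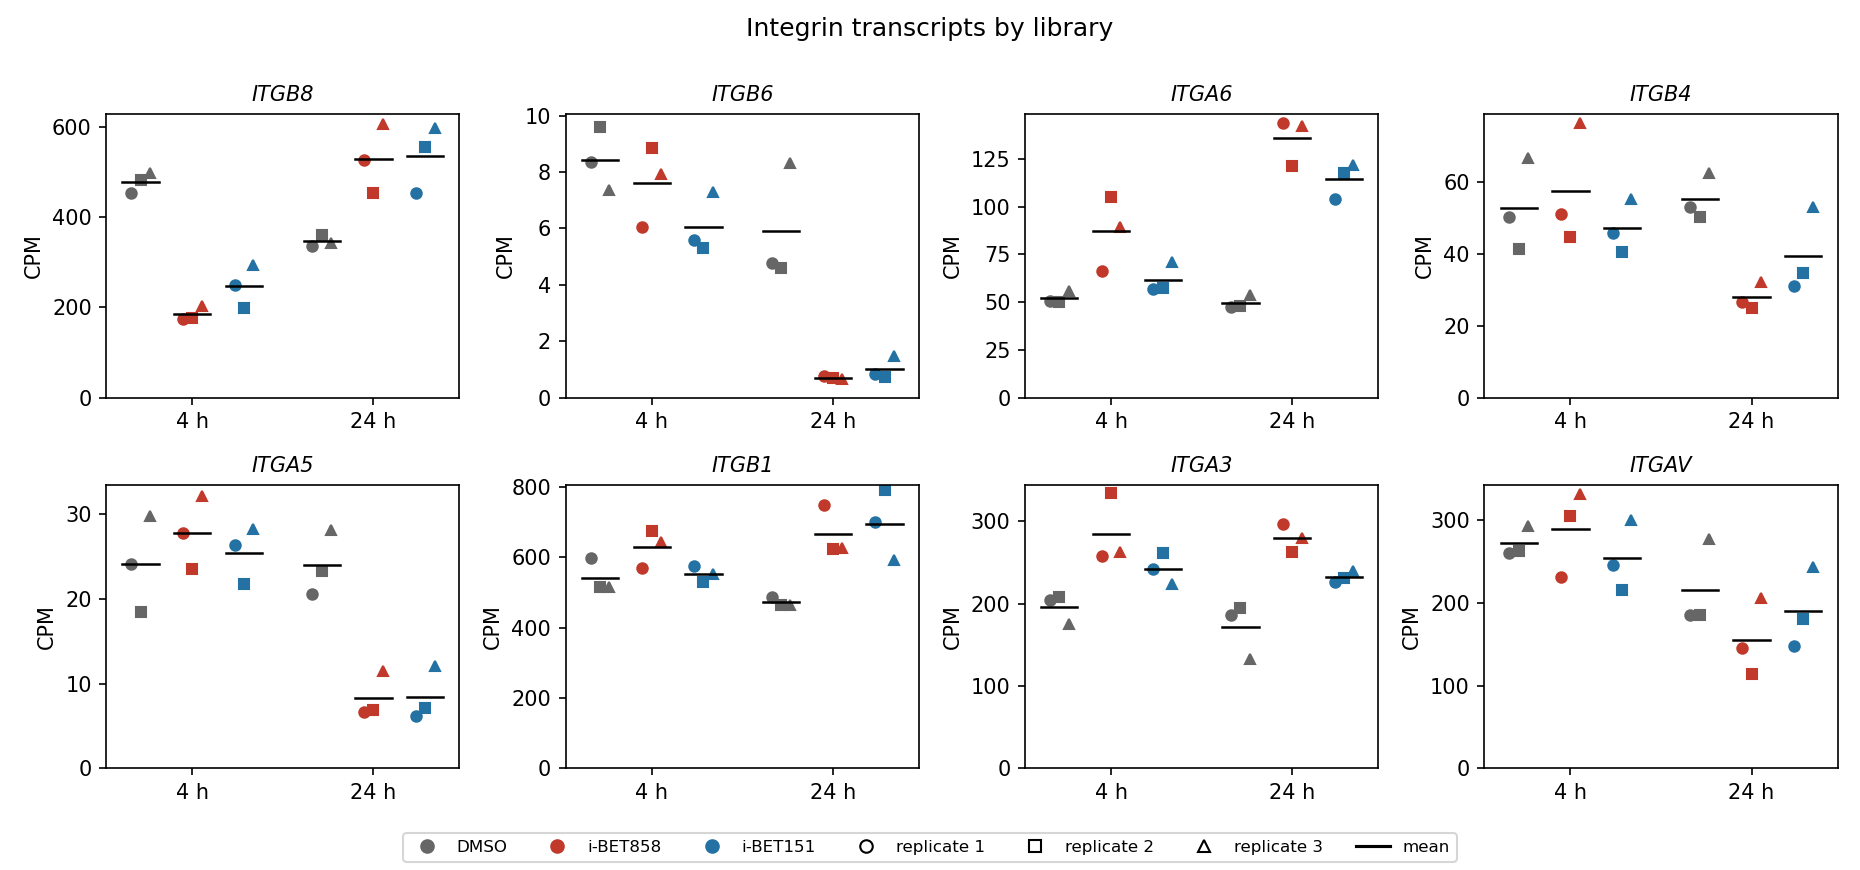
CPM of 8 integrin subunits in each of the 18 libraries, by treatment and time point, with points for the replicates and a line at the mean of 3. ITGB8 lies below DMSO at 4 h and above it at 24 h with both drugs, ITGB6 and ITGA5 fall at 24 h, and ITGA6 rises.

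Of the laminin-binding α subunits, the genes for α3 and α6 rose. ITGA6, which forms α6β1 and α6β4, had 47.3, 48 and 53.6 CPM with DMSO at 24 h. It had 144, 121 and 142 CPM with i-BET858 (2.66-fold, 1.41 ± 0.11, adjusted p = 5.89e-06) and 104, 118 and 122 CPM with i-BET151 (2.27-fold, 1.18 ± 0.11, adjusted p = 3.03e-05). Every treated library lay above every DMSO library. At 4 h ITGA6 had 50.6, 49.9 and 55.9 CPM with DMSO and 66.3, 105 and 89.5 CPM with i-BET858 (0.74 ± 0.17, adjusted p = 0.00611). The 56.7, 57.5 and 71.1 CPM with i-BET151 did not pass (0.24, adjusted p = 0.383). The effect grew from 4 to 24 h by 0.71 for i-BET858 (adjusted p = 0.0141) and by 0.96 for i-BET151 (adjusted p = 0.00464). ITGA3, which forms the laminin receptor α3β1, followed with smaller steps. Its 187, 194 and 132 CPM with DMSO at 24 h compare with 297, 262 and 280 CPM with i-BET858 (0.67 ± 0.13, adjusted p = 0.00184) and 226, 231 and 240 CPM with i-BET151 (0.42 ± 0.13, adjusted p = 0.0283), without overlap. The call with i-BET151 was lost without any of its 3 libraries (adjusted p = 0.065, 0.0754 and 0.0787). At 4 h ITGA3 rose with i-BET858 (0.54 ± 0.13, adjusted p = 0.00796) and gave 0.31 with i-BET151 (adjusted p = 0.141, 0.00984 with the replicate block). Under scaling to the total library size ITGA3 was not called with i-BET858 at 4 h (0.38, adjusted p = 0.0556) or with i-BET151 at 24 h (0.38, adjusted p = 0.0717). With only the 2 groups compared, the latter call was lost too (0.43, adjusted p = 0.0542). ITGA7, the laminin-binding subunit of muscle, passed with neither drug (−0.52 and −0.21 at 24 h). The partner subunits α6 and β4 thus moved in opposite directions with i-BET858.

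The RGD-binding α subunits, which recognise the Arg-Gly-Asp motif of fibronectin and other ligands, fell at 24 h where they passed the test. ITGA5, the α subunit of the fibronectin receptor α5β1, had 20.6, 23.2 and 28.1 CPM with DMSO at 24 h. It had 6.62, 6.92 and 11.4 CPM with i-BET858 (2.97-fold lower, −1.57 ± 0.29, adjusted p = 0.00134) and 6.2, 7.15 and 12 CPM with i-BET151 (2.88-fold lower, −1.53 ± 0.29, adjusted p = 0.00217). The treated libraries did not overlap with DMSO, and within the treated groups replicate 3 was the highest. At 4 h the log2 fold changes of ITGA5 were 0.21 and 0.07 and did not pass. ITGA2B, the αIIb subunit of platelets, had 3.44 to 4.55 CPM in DMSO. It fell to 0.322 to 1.31 CPM with i-BET858 (−2.17 ± 0.51, adjusted p = 0.00596) and 0.553 to 1.64 CPM with i-BET151 (−1.79, adjusted p = 0.0189, 0.064 without DMSO replicate 2). At 4 h ITGA2B gave 0.67 with i-BET151 (adjusted p = 0.111, 0.0472 with the replicate block). ITGAV, the partner of β5, β6 and β8, had 186, 186 and 277 CPM with DMSO. The groups overlapped, with 146, 115 and 206 CPM with i-BET858 (−0.52, adjusted p = 0.125, 0.000742 with the replicate block) and 148, 180 and 244 CPM with i-BET151 (−0.20, adjusted p = 0.58). Of the remaining α subunits, ITGA9 fell with i-BET858 from 4.21, 2.9 and 4.87 CPM to 0.98, 0.75 and 0 CPM (−2.80 ± 0.79, adjusted p = 0.0153). For i-BET151 it gave −2.01 (adjusted p = 0.065, 0.0249 with the block). ITGAE, the αE subunit that binds E-cadherin, fell with i-BET858 from 9.33, 8.66 and 12.7 CPM to 6.6, 6.86 and 5.94 CPM (−0.70, adjusted p = 0.0113). For i-BET151 it gave −0.35 (adjusted p = 0.172). Among the collagen-binding α subunits, ITGA2, which forms α2β1, gave 0.23 for i-BET858 at 24 h (adjusted p = 0.427). For i-BET151 it gave 0.44 (adjusted p = 0.136).

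Of the 6 collagen IV genes, 3 fell with i-BET858 at 24 h and 0 with i-BET151 (edgeR, 1 at an unadjusted p under 0.05, DESeq2 0), beside 21.3 and 16.6% of all genes that fell. COL4A1 and COL4A2 encode the α1 and α2 chains of the common collagen IV network. COL4A2 had 169, 168 and 147 CPM with DMSO and 84.3, 76.7 and 110 CPM with i-BET858 (−0.87 ± 0.20, adjusted p = 0.00478). With i-BET151 it had 96.5, 103 and 161 CPM (−0.44 ± 0.20, adjusted p = 0.109, −0.49 and 0.0132 with the block). COL4A1 had 91.3, 90.6 and 95.4 CPM with DMSO and 54, 44.4 and 73.3 CPM with i-BET858 (−0.73 ± 0.21, adjusted p = 0.0173). Its level with i-BET151 was 57, 64 and 95.4 CPM (−0.38 ± 0.21, adjusted p = 0.198, −0.42 and 0.0144 with the block). Both genes were below all DMSO libraries with i-BET858, and with i-BET151 replicate 3 reached the DMSO range. The call of COL4A1 was lost without DMSO replicate 3 or without replicate 1 or 2 of i-BET858 (highest adjusted p = 0.0660). At 4 h i-BET858 gave log2 fold changes of 0.38 (adjusted p = 0.244, 0.0124 with the block) for COL4A1 and 0.39 (adjusted p = 0.185, 0.0028 with the block) for COL4A2. The effect changed from 4 to 24 h by −1.07 for COL4A1 (adjusted p = 0.0221) and by −1.22 for COL4A2 (adjusted p = 0.00588). COL4A5 fell with i-BET858 from 42.6, 42.4 and 43.2 CPM to 35.1, 27.9 and 25.9 CPM (−0.57 ± 0.14, adjusted p = 0.00719) and had 34.8, 45.1 and 44.3 CPM with i-BET151 (−0.07, adjusted p = 0.744). COL4A6, which shares a start region with COL4A5, gave −0.42 (adjusted p = 0.234) and −0.34 (adjusted p = 0.352). COL4A3 and COL4A4, the chains of the kidney glomerulus, were low, at 0 to 0.515 and 0.775 to 1.21 CPM in DMSO at 24 h, and did not pass.

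**Figure D3:**
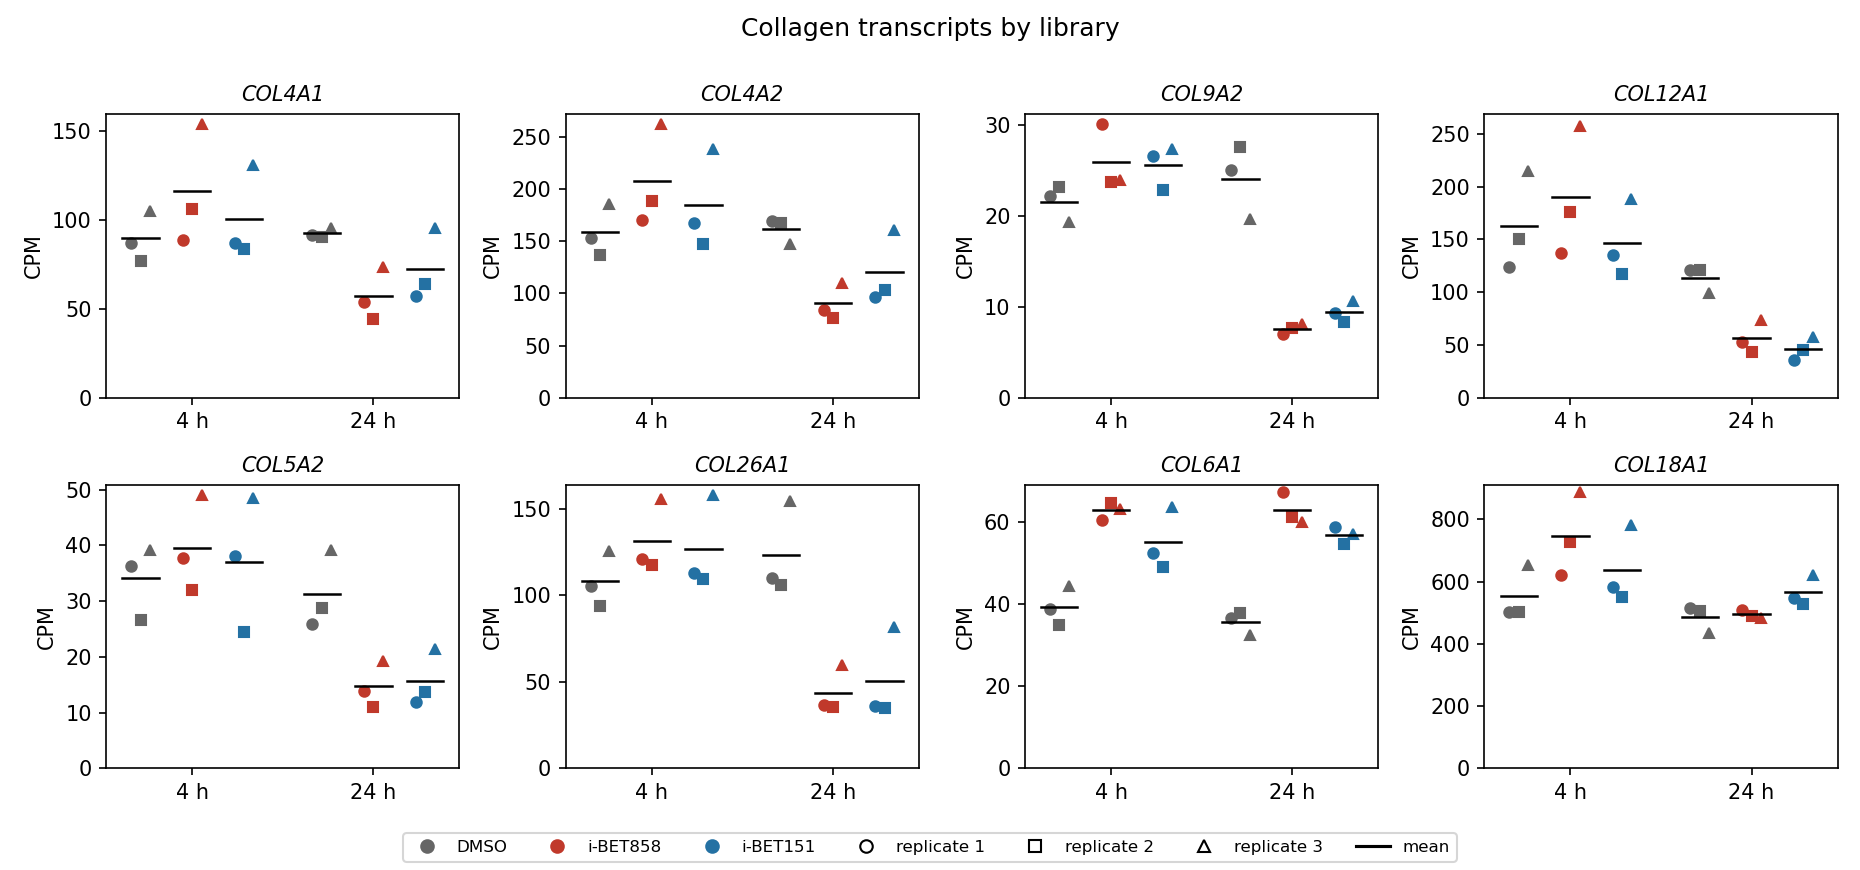
CPM of 8 collagen genes in each of the 18 libraries, by treatment and time point, with points for the replicates and a line at the mean of 3. COL9A2, COL12A1, COL5A2 and COL26A1 fall at 24 h with both drugs, COL6A1 rises at both time points, and COL18A1 overlaps with DMSO at 24 h.

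Of the 6 fibril-associated collagens tested at 24 h, 3 fell with each drug, beside 21.3 and 16.6% of all genes that fell. COL9A2, a chain of the collagen IX that decorates cartilage fibres, had 25.1, 27.6 and 19.6 CPM with DMSO. It had 6.97, 7.7 and 8.13 CPM with i-BET858 (3.26-fold lower, −1.70 ± 0.17, adjusted p = 2.08e-05) and 9.3, 8.3 and 10.6 CPM with i-BET151 (2.60-fold lower, −1.38 ± 0.16, adjusted p = 0.000131). The groups lay far apart, and at 4 h COL9A2 gave 0.27 and 0.24. COL12A1, which links fibrils to other matrix proteins, had 121, 121 and 99.2 CPM with DMSO. It had 52.5, 43.7 and 74 CPM with i-BET858 (−1.04 ± 0.21, adjusted p = 0.00242) and 35.7, 45 and 57.9 CPM with i-BET151 (−1.32 ± 0.21, adjusted p = 0.000838), with no overlap. COL9A1, another chain of collagen IX, was low, with 56, 36 and 76 counts in DMSO and 3, 6 and 19 counts with i-BET858 (−2.81, adjusted p = 0.0247). This call was lost without replicate 1 or 3 of DMSO or replicate 1 or 2 of i-BET858 (highest adjusted p = 0.0882). COL9A1 had 5, 1 and 0 counts with i-BET151 (−4.99 ± 1.03, adjusted p = 0.0036). It passed the filter on low counts through the DMSO libraries, where it was high, so that it had to differ. COL21A1 did not pass at 24 h (−0.99, adjusted p = 0.0612, and −1.04, adjusted p = 0.0604) but did so with the replicate block (adjusted p = 0.0391 and 0.0451) and with DESeq2 (adjusted p = 0.0381 and 0.0297).

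The fibrillar collagens split. COL5A2, a chain of the collagen V that nucleates fibrils, had 25.9, 28.7 and 39.2 CPM with DMSO at 24 h. It had 13.9, 11 and 19.2 CPM with i-BET858 (−1.13 ± 0.27, adjusted p = 0.00631) and 11.9, 13.6 and 21.4 CPM with i-BET151 (−1.02 ± 0.27, adjusted p = 0.0133), all below DMSO. The call of COL5A2 with i-BET151 was lost without DMSO replicate 3 or replicate 1 or 2 of i-BET151 (highest adjusted p = 0.057). COL5A3, which can take part in the same trimer, rose from 2, 5 and 0 counts in DMSO. It had 53, 34 and 59 counts with i-BET858 (3.99 ± 0.80, adjusted p = 0.00226) and 29, 36 and 45 counts with i-BET151 (3.71 ± 0.80, adjusted p = 0.00457). At 4 h COL5A3 had 2, 4 and 1 counts in DMSO. The drugs gave 9, 13 and 16 with i-BET858 (2.54, adjusted p = 0.0304) and 12, 12 and 36 with i-BET151 (3.16, adjusted p = 0.0191). The calls of COL5A3 at 4 h were lost without any 1 of the 3 DMSO libraries (adjusted p 0.054 to 0.105). With i-BET858 they were also lost without any of its own libraries or replicate 1 or 2 of i-BET151 (highest adjusted p = 0.081). Without a filter on low counts neither call was made (adjusted p = 0.117 with i-BET858 and 0.0522 with i-BET151). These sizes rest on very few DMSO counts, COL5A3 passed the filter through its treated libraries, and at 24 h COL5A3 reached 0.708 to 1.73 CPM with the drugs. COL27A1 fell with both drugs, from 3.03, 3.2 and 2.58 CPM to 1, 0.806 and 1.93 CPM with i-BET858 (−1.28, adjusted p = 0.0286). That call was lost without replicate 1 or 2 of DMSO or of i-BET858 (highest adjusted p = 0.106), without a filter on low counts (0.0558) and with all 18 libraries in 1 fit (0.0922). COL27A1 stood at 0.586, 0.456 and 0.291 CPM with i-BET151 (−2.73 ± 0.44, adjusted p = 0.000882). COL1A2, a chain of the collagen I of fibroblasts, had 45, 28 and 22 counts in DMSO and fell with i-BET858 to 15, 7 and 6 counts (−2.12, adjusted p = 0.0149, 0.0879 without DMSO replicate 1, 0.0613 without i-BET858 replicate 2 and 0.0634 without a filter on low counts). For i-BET151 it had 16, 9 and 17 counts (−1.38, adjusted p = 0.0903), and it was called lower by DESeq2 and with replicates 1 and 2 only.

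Of the genes of collagen VI, which forms beaded microfibrils around cells, COL6A1 and COL6A2 rose with both drugs at 24 h. COL6A1 had 38.8, 34.9 and 44.3 CPM with DMSO at 4 h and rose to 60.5, 64.6 and 63.2 CPM with i-BET858 (0.68 ± 0.14, adjusted p = 0.00326). It rose to 52.5, 49.1 and 63.6 CPM with i-BET151 (0.48, adjusted p = 0.0353, lost without replicate 1 or 2 of DMSO or replicate 1 or 3 of i-BET151, highest adjusted p = 0.143). At 24 h COL6A1 stood at 36.6, 37.7 and 32.4 CPM, 67.3, 61.1 and 60 CPM (0.78 ± 0.10, adjusted p = 9.82e-05) and 58.8, 54.7 and 57 CPM (0.66 ± 0.10, adjusted p = 0.000474). Its neighbour COL6A2 went at 24 h from 22.8, 21.1 and 18.9 CPM to 32.1, 32.6 and 31.3 CPM with i-BET858 (0.57 ± 0.11, adjusted p = 0.00185). It went to 37.9, 32.1 and 34.9 CPM with i-BET151 (0.72 ± 0.11, adjusted p = 0.000653). At none of these points did treated and DMSO libraries overlap. At 4 h COL6A2 gave 0.52 with i-BET858 (adjusted p = 0.0508, 0.000719 with the replicate block, 0.0242 with DESeq2). With i-BET151 it gave 0.51 (adjusted p = 0.0863, 0.00173 with the block, 0.0476 with DESeq2). COL18A1 had 515, 506 and 434 CPM with DMSO at 24 h and 508, 491 and 484 CPM with i-BET858 (−0.01 ± 0.10, 95% confidence interval −0.23 to 0.21). At 4 h it gave 0.44 (adjusted p = 0.0741, 0.000133 with the block), and 18.5% of its exon bases overlap a gene on the opposite strand. The other multiplexin, COL15A1, rose at 24 h from 4, 4 and 5 counts to 54, 26 and 54 counts with i-BET858 (2.99 ± 0.53, adjusted p = 0.00106). It had 51, 38 and 31 counts with i-BET151 (2.94 ± 0.53, adjusted p = 0.00166), and it passed the filter through these treated libraries.

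Of the remaining collagens, the transmembrane collagen COL23A1 fell from 10.3, 7.81 and 10.1 CPM to 3.38, 3.5 and 4.53 CPM with i-BET858 (−1.35, adjusted p = 0.00543). For i-BET151 it had 3.22, 2.56 and 6.14 CPM (−1.26, adjusted p = 0.00987). COL26A1 fell from 110, 106 and 154 CPM to 36.4, 35.3 and 59.7 CPM with i-BET858 (−1.54 ± 0.34, adjusted p = 0.00402). It had 36.1, 34.6 and 81.5 CPM with i-BET151 (−1.30 ± 0.34, adjusted p = 0.0123, 0.0517 without i-BET151 replicate 2). No treated library of either gene reached the DMSO range. COL25A1, the transmembrane collagen found in amyloid plaques, was called at 4 h only. It rose with i-BET858 from 2.76, 3.12 and 3.1 CPM to 5.25, 6.76 and 9.23 CPM (1.25 ± 0.30, adjusted p = 0.00818) and gave −0.27 at 24 h (adjusted p = 0.582). The change between the time points was −1.47 (adjusted p = 0.0165).

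Among the laminin chains, α3 and β3, which share a trimer in the basement membrane of epithelia, moved in opposite directions with i-BET858. LAMA3 had 77.3, 85.6 and 56.2 CPM with DMSO at 24 h. It fell to 31.3, 24.7 and 39.2 CPM with i-BET858 (2.36-fold, −1.24 ± 0.18, adjusted p = 0.000298) and to 28.8, 32.4 and 30.1 CPM with i-BET151 (2.43-fold, −1.28 ± 0.18, adjusted p = 0.000375). LAMB3 had 47.7, 55.4 and 53.6 CPM with DMSO and rose to 71.7, 67.4 and 79.8 CPM with i-BET858 (0.44 ± 0.13, adjusted p = 0.0214, 0.0815 without DMSO replicate 1, 0.0612 without i-BET858 replicate 3 and 0.0943 with all 18 libraries in 1 fit). For i-BET151 it had 37, 40.9 and 51 CPM (−0.30 ± 0.13, adjusted p = 0.108, 0.0202 with the block). With i-BET858 the α3 chain was therefore below all DMSO libraries and the β3 chain above all of them. The γ3 chain LAMC3 fell with both drugs, from 9.54, 8.05 and 9.17 CPM to 3.31, 3.06 and 2.22 CPM with i-BET858 (3.20-fold, −1.68 ± 0.23, adjusted p = 0.000202). It had 2.73, 3.04 and 2.04 CPM with i-BET151 (3.48-fold, −1.80 ± 0.23, adjusted p = 0.000216).

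Of the chains of laminin-511 and laminin-521, LAMA5 had 529, 508 and 474 CPM with DMSO at 24 h and 513, 484 and 559 CPM with i-BET858 (0.00 ± 0.11, 95% confidence interval −0.25 to 0.26). LAMB1 fell with i-BET858 from 91.1, 89.7 and 78.1 CPM to 62.7, 52.5 and 51.1 CPM (−0.68 ± 0.12, adjusted p = 0.000997). For i-BET151 it had 65.7, 76.3 and 81.3 CPM (−0.23, adjusted p = 0.157). LAMB2, the alternative β chain, rose from 224, 203 and 196 CPM to 343, 303 and 314 CPM with i-BET858 (0.59 ± 0.09, adjusted p = 0.000473). It had 290, 313 and 313 CPM with i-BET151 (0.54 ± 0.09, adjusted p = 0.00121). At 24 h the β1 and β2 chains thus moved in opposite directions with i-BET858 while the α5 groups overlapped. With i-BET858 at 4 h LAMB1 gave 0.32 (adjusted p = 0.107), LAMB2 0.48 (adjusted p = 0.0513) and LAMA5 0.33 (adjusted p = 0.312). Each was called higher with the block, and LAMB2 also by DESeq2. With i-BET151 at 4 h LAMA5 gave 0.26 (adjusted p = 0.505) and was called with the block. LAMC1, the common γ chain, had 300, 284 and 358 CPM with DMSO at 24 h and 433, 345 and 442 CPM with i-BET858 (0.33, adjusted p = 0.0918, 0.00829 with the block). It rose to 412, 480 and 549 CPM with i-BET151 (0.59 ± 0.14, adjusted p = 0.00959, 0.0584 with all 18 libraries in 1 fit). LAMA1, the α chain of the embryonic laminin-111, rose at 4 h from 16.6, 15.4 and 17 CPM to 23.2, 25.2 and 21.6 CPM with i-BET858 (0.52, adjusted p = 0.0119) and 23.2, 24.7 and 25.9 CPM with i-BET151 (0.59, adjusted p = 0.0119). Both calls were lost without DMSO replicate 2 (adjusted p = 0.0628 and 0.0611), and that with i-BET858 under scaling to the total library size (0.36, adjusted p = 0.0625) and without a filter on low counts (adjusted p = 0.0636). At 24 h LAMA1 rose with i-BET151 (0.72 ± 0.15, adjusted p = 0.00458). With i-BET858 it gave 0.30 at 24 h (adjusted p = 0.15). LAMA2, the α chain of muscle, fell with i-BET151 at both times (−1.42, adjusted p = 0.0397, and −1.13, adjusted p = 0.0491). LAMA4, the α chain of vessels, fell with i-BET858 at 24 h, from 29, 18 and 26 counts to 11, 5 and 0 (−2.58 ± 0.92, adjusted p = 0.0443). These calls were lost without most single libraries of their time point (adjusted p up to 0.169 for LAMA2 and 0.126 for LAMA4), and without a filter on low counts (adjusted p = 0.0602 and 0.173 for LAMA2 and 0.0688 for LAMA4). LAMA2 was not called with only the 2 groups compared either (adjusted p = 0.0563 and 0.0587). With i-BET858 LAMA2 gave −0.90 at 4 h (adjusted p = 0.126) and −0.72 at 24 h (adjusted p = 0.17). LAMA4 passed the filter through its DMSO libraries, where it was high. With i-BET151 at 24 h LAMA4 gave −2.44 (adjusted p = 0.0649) and was called under 5 of 17 alternatives, DESeq2 among them.

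**Figure D4:**
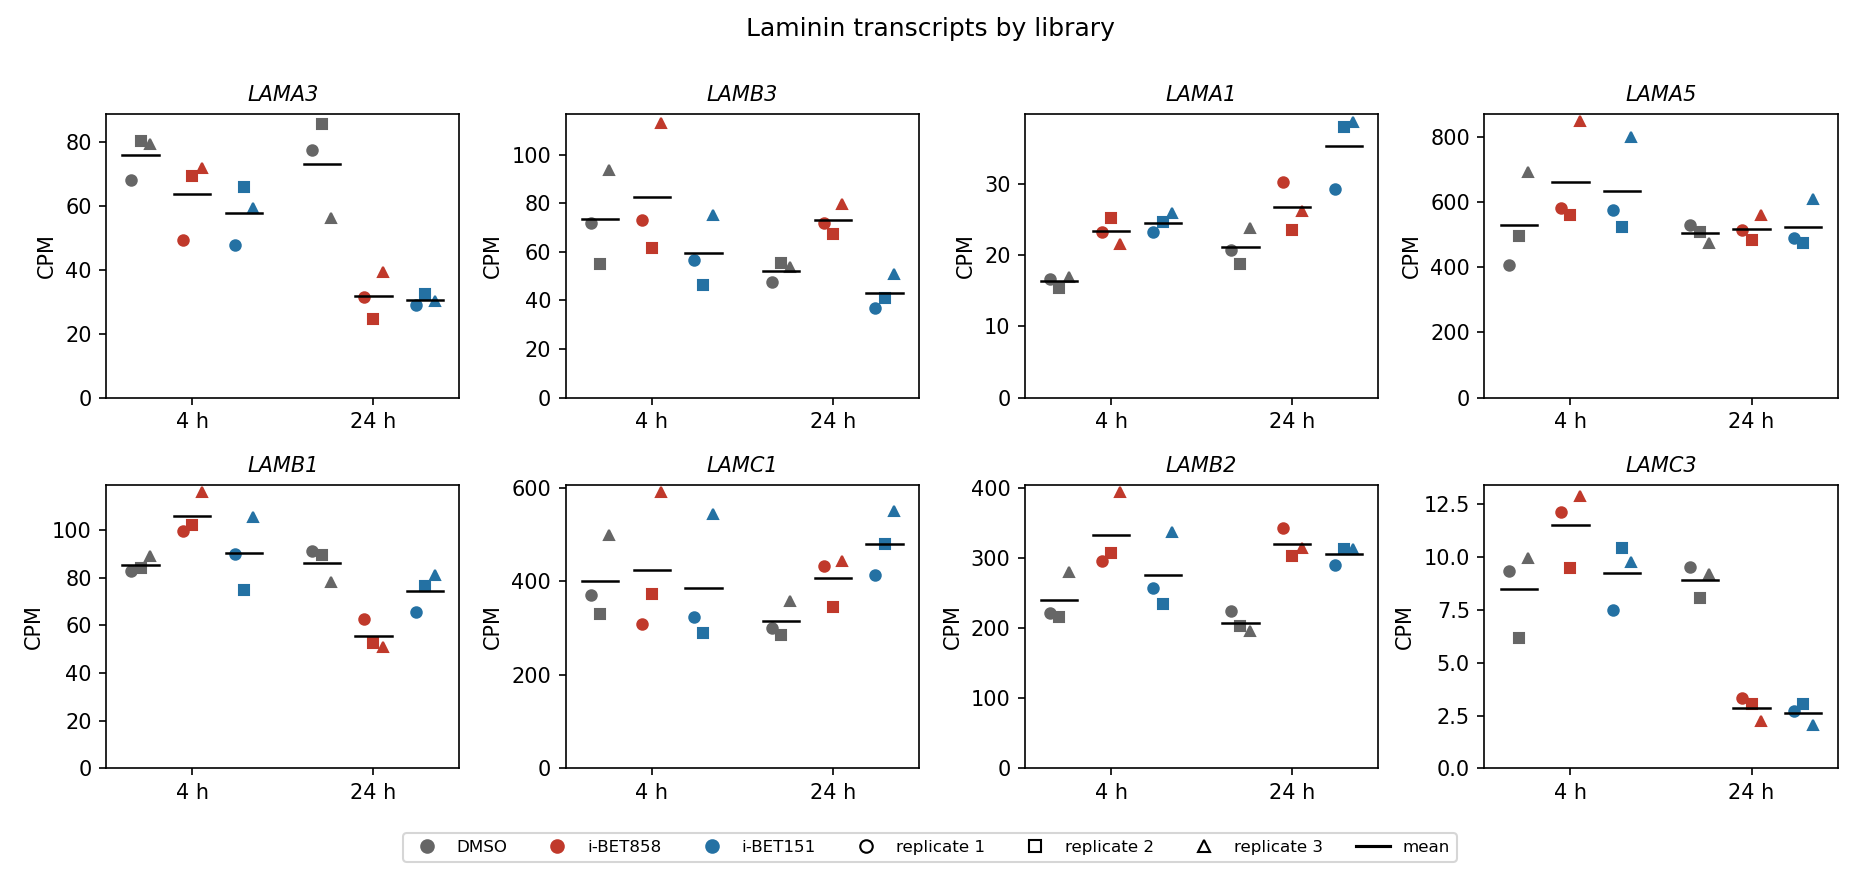
CPM of 8 laminin chains in each of the 18 libraries, by treatment and time point, with points for the replicates and a line at the mean of 3. LAMA3 and LAMC3 fall at 24 h with both drugs, LAMB2 rises, and LAMB3 at 24 h lies above DMSO only with i-BET858.

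The next question was whether the effects differed between the time points. Between 4 and 24 h the effect of i-BET858 changed in 22 of 66 tested members (2 towards higher and 20 towards lower levels). Of all genes it changed in 27.2%, 14.6% towards higher and 12.6% towards lower. For i-BET151 it changed in 14 members (3 and 11), while it changed in 13.8% of all genes, 6.99% towards higher and 6.82% towards lower. The members with the smallest p were ITGB8, COL9A2, ITGB6 and LAMC3 for both drugs. COL9A2 changed by −1.93 for i-BET858 (adjusted p = 8.61e-06) and −1.61 for i-BET151 (adjusted p = 0.000184). ITGB6 changed by −2.92 and −2.06 and LAMC3 by −2.08 and −1.90. In DMSO alone 0 of 66 members differed between 24 and 4 h (edgeR, 5 at an unadjusted p under 0.05, DESeq2 0, all genes 0.0386%). With the replicate block 1 did, ITGB8 (all genes 2.07%).

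**Figure D5:**
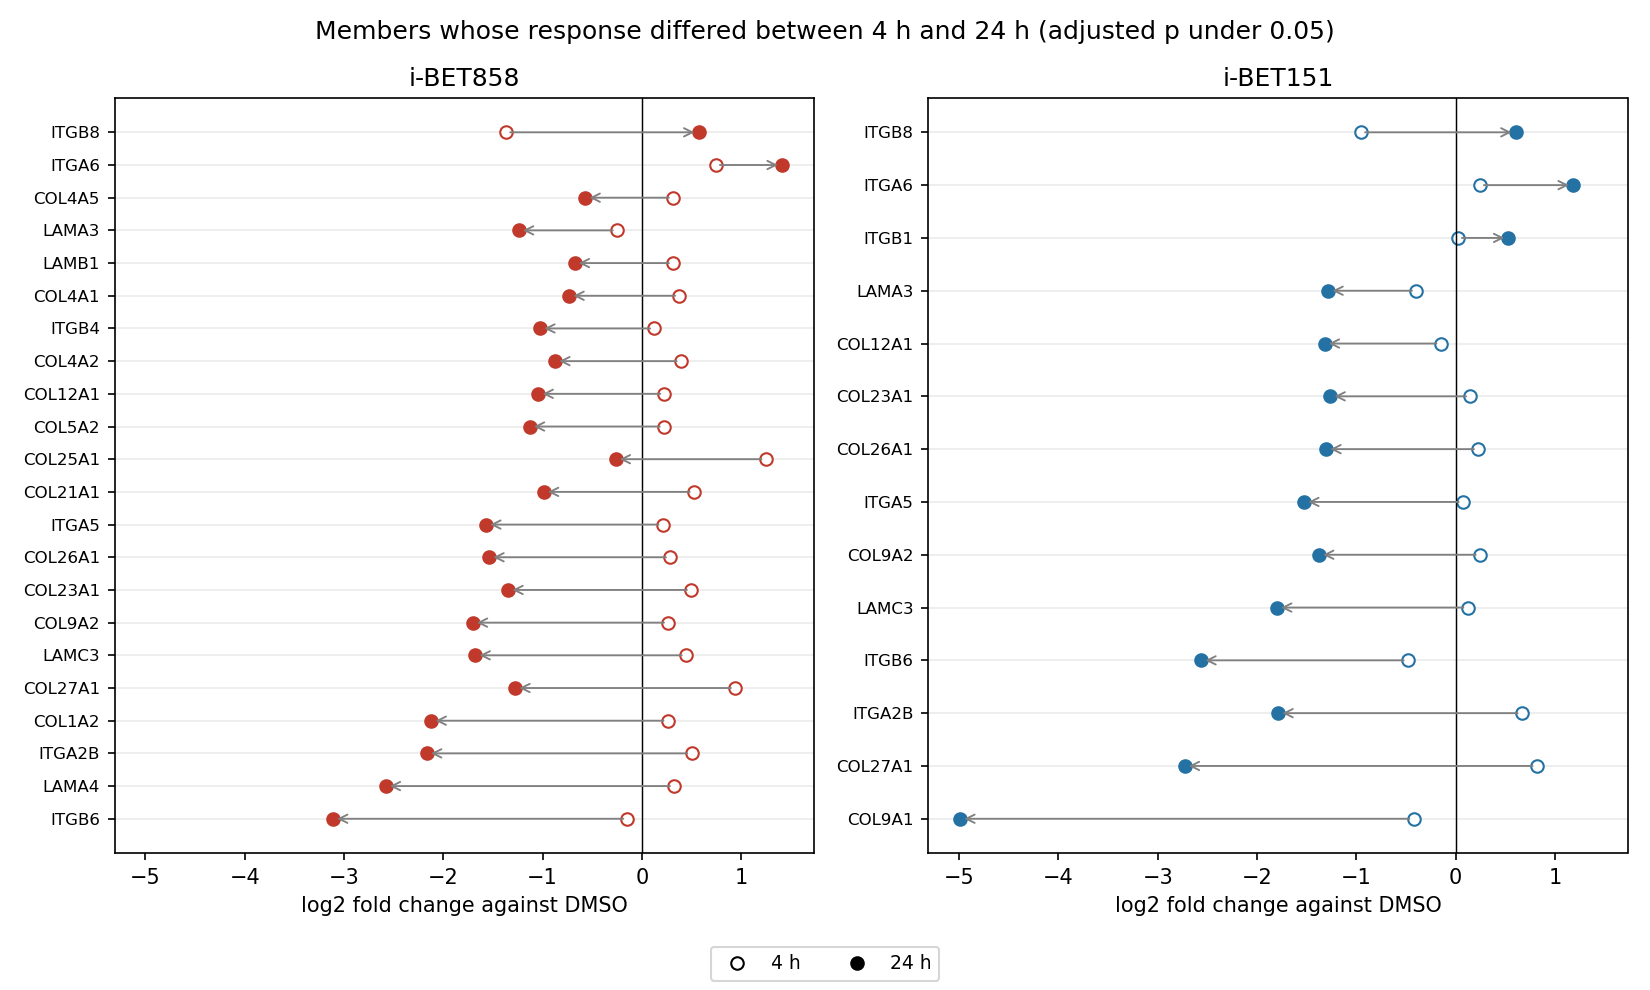
Log2 fold change against DMSO at 4 h (open) and 24 h (filled) of the members whose effect changed between the time points, joined by a line, for each drug. Most lines run from near or above 0 at 4 h to below it at 24 h, and ITGB8 runs from below 0 to above it.

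Finally, the drugs were set against each other at the same dose and time, in 62 members at 4 h and 61 at 24 h. By edgeR 0 members differed at either time (0.971 and 0.21% of all genes), with 3 and 6 at an unadjusted p under 0.05. DESeq2 called 0 and 4 members (6.08 and 3.9% of all genes), and the fit with the replicate block 7 and 4 (9.63 and 4.37%). The intervals leave room for differences. LAMB3 at 24 h was 0.75 higher with i-BET858 than with i-BET151 (95% confidence interval 0.45 to 1.04, adjusted p = 0.0649). It was called in the fit with the block (0.76, adjusted p = 0.00304) and by DESeq2 (0.76, adjusted p = 0.000169). LAMB1 differed by −0.44 (−0.71 to −0.18, adjusted p = 0.171) and COL4A5 by −0.50 (−0.81 to −0.19, adjusted p = 0.186). COL27A1 differed by 1.45 (0.49 to 2.42, adjusted p = 0.222), and none of the 3 passed. DESeq2 called all 3 (adjusted p = 0.0355, 0.0485 and 0.0458), and the fit with the block called LAMB1 (adjusted p = 0.0433). At 4 h ITGB8 differed by −0.41 (−0.72 to −0.11, adjusted p = 0.226, 0.0134 with the block) and ITGA6 by 0.50 (adjusted p = 0.226, 0.0237 with the block). COL25A1 differed by 0.63 (−0.02 to 1.28, adjusted p = 0.436). For ITGB8 at 24 h the difference was −0.03 (−0.32 to 0.25), whereas for COL4A2 it was −0.43 (−0.87 to 0.01).

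The genes that process, bind or degrade these proteins were counted from 5 lists. Of 29 tested genes for collagen synthesis and crosslinking, 8 rose and 11 fell with i-BET858 at 24 h (65.5%, beside 41.7% of all genes) and 8 and 12 with i-BET151 (69%, beside 33.8%). At 4 h 10 were called with i-BET858 (34.5%, beside 30.8%), all of them higher, and 2 with i-BET151 (6.9%, beside 16.2%), also higher. P3H1, the prolyl 3-hydroxylase of procollagen, rose from 14.7, 13.7 and 11.4 CPM to 78.5, 79.3 and 80.9 CPM with i-BET858 (2.55, adjusted p = 3.02e-07) and 62.3, 59.8 and 59.6 CPM with i-BET151 (2.17). P4HA3, a prolyl 4-hydroxylase subunit, rose too (2.41, adjusted p = 0.000337). LOX, the lysyl oxidase that crosslinks collagen, fell from 4.48, 4.04 and 8.54 CPM to 1.31, 1.2 and 1.11 CPM (−2.28, adjusted p = 0.00571). The collagen chaperone FKBP10 fell by 1.90 on the log2 scale (adjusted p = 0.00019). Of 9 other matrix receptors, 4 were called with i-BET858 (44.4%) and 3 with i-BET151 (33.3%), near the shares of all genes, and all of them were lower. The collagen receptor kinase DDR1 fell from 299, 288 and 297 CPM to 121, 117 and 114 CPM with i-BET858 (−1.37, adjusted p = 2.34e-06), as did DDR2 (−3.64, adjusted p = 2.89e-05). Of 27 integrin adaptors and kinases 6 rose and 11 fell with i-BET858 (63%), with TLN2 at 1.95 and FLNA at 1.05 and the kindlin FERMT1 at −3.07 and TNS4 at −3.23. Of 21 other matrix glycoproteins 2 rose (TGFBI 2.70 and CCN2 0.91) and 5 fell (33.3% called), with NTN4 at −2.04 and EFEMP2 at −1.37. Of 21 proteases and inhibitors 4 rose, with MMP17 at 2.23 and MMP11 at 0.75, and 6 fell, with PLAU, the urokinase, at −3.15 and ADAMTS1 at −1.64 (47.6% called). With i-BET858 at 4 h 6 rose and 0 fell of the glycoproteins (28.6%), 6 and 2 of the proteases and inhibitors (40%) and 6 and 1 of the adaptors (25.9%), beside 30.8% of all genes. With i-BET151 at 24 h the numbers were 2 and 5 (33.3%), 2 and 6 (38.1%) and 5 and 8 (48.1%), beside 33.8%. At 4 h they were 3 and 0 (14.3%), 3 and 3 (30%) and 2 and 2 (14.8%), beside 16.2%. Of the other matrix receptors, 1 rose with each drug at 4 h (11.1%). The shares of the lists were not tested against those of all genes.

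Of the 82 members, 20 were left out of the test at 4 h and 21 at 24 h by the filter on low counts, among them COL3A1, COL5A1, COL6A3, COL10A1, ITGA8, ITGAL, ITGAM and LAMB4. They were not compared in the main fit of that time point. With replicates 1 and 2 only, some of them were tested, and COL13A1 and ITGAX fell with each drug at 24 h. A member that passes the filter through one group alone had to differ, so the counts above describe the tested members and not all 82. The other tested members that passed in no comparison at 24 h had log2 fold changes between −2.0 (COL8A2 with i-BET858) and 2.07 (ITGA11 with i-BET151).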

How the data were processed

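The 18 libraries hold poly-A RNA from OVCAR-3 cultures. Per the paper's methods, the authors aligned the reads with STAR to GRCh38, counted them per gene and normalised the counts with DESeq2. The deposited values are whole-number counts whose totals differ between libraries, and from this they were taken as counts before normalization. The gene annotation and the strand column are not given in the sources used here. Symbols, positions and exon lengths came from GENCODE 44 (58472 of 58825 identifiers, 99.4%, matched). Of the genes, 23896 had no count in any library.

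The 9 libraries of a time point (3 groups) went into 1 fit of edgeR 4.0.16 in R 4.3.3, with TMM, edgeR's filter on low counts, the quasi-likelihood test and Benjamini-Hochberg adjustment over all genes. Changes of effect and the DMSO time points were contrasts in a fit of all 18 libraries. CPM were scaled over the 18 libraries. The members and gene lists were chosen with earlier results of these data known. Named members were the 10 largest changes per drug and time among those called with 1 direction in all 9 treated and DMSO pairs, the chains of collagen IV, of an epithelial laminin and of laminin-511 and the main integrins whatever their values, the 5 most abundant, and the 4 with the smallest p in each contrast between drugs or times. Per list, the 2 largest changes in each direction with i-BET858 at 24 h were named. Other members are named where they complete a group or were singled out after their values were seen. The values of 1 member are not reported here.

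Replicates of a group differed by 3.28 to 48.4 times counting variance (chi-square per degree of freedom). Replicates 1 and 2 differed by 3.28 to 15.2 times, and pairs with replicate 3 by 31.4 to 48.4 times. After removal of group means, libraries of the same replicate number correlated at 0.141 to 0.365 at 4 h and 0.161 to 0.352 at 24 h, and others at −0.341 to 0.326. Medians were 0.302 and 0.285 for the same number at 4 and 24 h, and −0.225 and −0.247 for different numbers. The ranges overlapped, since different numbers reached 0.233 at 4 h and 0.326 at 24 h. Replicate 3 stood apart from replicates 1 and 2, and the correlations do not settle whether each number forms a matched set. The replicate block assumes such sets, which the labels do not state, and all blocked values rest on this assumption. Alternatives were DESeq2 1.42.0, its size factors, total library size, 2 other filters on low counts, a 2-fold threshold, only the 2 groups compared, all libraries in 1 fit, the replicate block, replicates 1 and 2 only, and each library left out in turn. On simulated data for i-BET858 at 4 h (16751 genes), the test recovered 51 of 100 genes changed 2-fold and 91 of 100 changed 4-fold, with 8 false calls. Only 200 genes were changed there, all with a mean above 1 CPM, whereas 30.8% of all genes were called in the data. Replicates were drawn independently, without a shift shared by the libraries of replicate 3. These figures therefore do not carry over to the real comparison or to members with low counts.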

Additional observations from a re-analysis of the deposited data

Results flagged for a closer look

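The results listed here have an effect of a drug that differed between 4 and 24 h, by edgeR's test of the change in log2 fold change (adjusted p under 0.05 over all genes). No other kind of departure is listed, and groups of 3 libraries were not examined for single outlying libraries.

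For the integrins with i-BET858 the changes were 1.98 for ITGB8 and 0.71 for ITGA6, towards higher levels, and −2.92 for ITGB6, −2.62 for ITGA2B, −1.73 for ITGA5 and −1.11 for ITGB4. With i-BET151 they were 1.58 for ITGB8, 0.96 for ITGA6, 0.53 for ITGB1, −2.06 for ITGB6, −2.43 for ITGA2B and −1.58 for ITGA5. ITGB8 was the member whose effect had opposite calls at the 2 times.

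Laminin chains changed with i-BET858 by −0.95 for LAMA3, −2.85 for LAMA4, −0.95 for LAMB1 and −2.08 for LAMC3, and with i-BET151 by −0.87 for LAMA3 and −1.90 for LAMC3.

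All collagens in this set changed towards lower levels. With i-BET858 the values were −1.07 for COL4A1, −1.22 for COL4A2 and −0.84 for COL4A5 in the basement membrane, −1.93 for COL9A2, −1.23 for COL12A1 and −1.47 for COL21A1 among those on fibrils, and −2.33 for COL1A2, −1.31 for COL5A2 and −2.18 for COL27A1 among the fibrillar ones. The transmembrane collagens COL23A1 and COL25A1 changed by −1.80 and −1.47, and COL26A1 by −1.78. With i-BET151 the values were −4.52 for COL9A1, −1.61 for COL9A2, −1.15 for COL12A1, −1.39 for COL23A1, −1.51 for COL26A1 and −3.53 for COL27A1.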

How the results depend on the processing

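Over 182 values of 46 members and 3250 settings, 2973 kept direction and side of the threshold, 123 passed it only under the alternative and 79 no longer passed it. A further 75 changed sign without passing the threshold in either case, and no called value changed sign. The cause of these moves was not tested. With a 2-fold threshold the members that rose were 2 with i-BET858 at 4 h and 3 at 24 h, and 1 and 3 with i-BET151, and 1 fell with i-BET151 at 4 h. With the replicate block 21 rose and 3 fell with i-BET858 at 4 h, 8 rose and 5 fell with i-BET151, 22 fell with i-BET151 at 24 h, 7 and 4 differed between the drugs at 4 and 24 h, the effect of i-BET151 changed with time in 23 and 1 differed between the DMSO times. The shares of all genes called in these comparisons with the block were 45.4, 32.7, 45.9, 9.63, 4.37, 28.4 and 2.07%. It changed no other count by over 1.5 times. With replicates 1 and 2 only, which leaves fewer samples, 15 rose with i-BET858 and 6 with i-BET151 at 4 h, 32 fell with each drug at 24 h, 4 differed between the drugs at 24 h, and effects changed with time in 36 and 26. The shares of all genes were then 41.9 and 25.9% at 4 h, 60.7 and 54.2% at 24 h, 7.29% between the drugs and 40.6 and 26.3% for the changes with time. Without a filter on low counts 1 fell with i-BET151 at 4 h and 1 differed between the drugs at 24 h, with only the 2 groups compared 1 fell with i-BET151 at 4 h, and with DESeq2 4 differed between the drugs at 24 h. Leaving out 1 library at a time gave 4 to 9 that rose and 1 that fell with i-BET858 at 4 h, 9 to 11 and 16 to 22 at 24 h, 0 to 3 and 1 to 2 with i-BET151 at 4 h, 10 to 12 and 10 to 17 at 24 h, 0 to 1 that differed between the drugs at 24 h, and 17 to 24 and 10 to 16 changes of effect. Scaling to the total library size moved the median of all genes with i-BET858 at 4 h from 0.02 to −0.14. Depth limited members under about 1 CPM, whose counts per library were below 50.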
